A study of Mus musculus with 10 samples.

Results

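Neurotrophins are secreted growth factors that keep sensory neurons alive during development and tune their sensitivity in the adult. They signal through the Trk receptor tyrosine kinases and through the p75 neurotrophin receptor, a member of the tumour necrosis factor receptor family that can work with sortilin to bind the uncleaved proneurotrophins. In dorsal root ganglia, where sensory neurons have their cell bodies, different Trk receptors mark different classes of touch, position and pain neurons.

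The 6 genes described here are the receptors Ntrk2, Ntrk3, Ngfr and Sort1 and the ligands Bdnf and Ntf3, chosen by gene symbol from the 23923 genes of the deposited count table. All 6 were present, and all 6 were among the 17439 genes with enough counts to be tested. RNA was taken from mouse dorsal root ganglia at an age of 1 month. The genotype Kif2a fl/fl; Avil cre, called Kif2a_cKO here, had 5 samples. The genotype Kif2a fl/fl without cre, called control here, had 5 samples, so the floxed Kif2a allele was shared by both groups. Kif2a encodes a kinesin that shortens microtubules, and the comparison asks which transcripts differ when it is targeted by a cre under control of Avil, the advillin gene, which is active in sensory neurons. Cre was present only in Kif2a_cKO, so its presence and the loss of Kif2a cannot be told apart. Separate animals are not named in the labels, and the p-values therefore reflect only sample-to-sample spread, which may be technical.

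Library totals ran from 28686616 to 73031457 counts in Kif2a_cKO and from 17506135 to 34500320 in controls. Total Kif2a counts did not check the deletion: its level was 69.0 ± 4.44 CPM (counts scaled to a library of 1e6) in Kif2a_cKO libraries and 70.2 ± 8.61 CPM in control libraries (SD, n = 5 each), summed over all exons and all cells. Sensory neuron markers were abundant in every library, with a summed level of 23403 to 27825 CPM in Kif2a_cKO and 16912 to 26838 CPM in controls over 14 genes. Transcripts of spinal cord cells were present at very different levels. A list of 20 genes of oligodendrocytes, astrocytes and spinal neurons, some of which Schwann cells also express, summed to 327, 181, 521, 495 and 517 CPM in Kif2a_cKO 1 to 5, against 1105, 247, 3140, 264 and 1140 CPM in controls 1 to 5. Control 3 stood apart, and the log2 fold change of each of the 6 genes is given with and without it. In such bulk samples fewer cells of a type and less RNA per cell cannot be told apart.

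Counts were summed over each gene and therefore over its promoters and isoforms. In GENCODE (GRCm38) Bdnf has 11 transcripts and lies on the plus strand of chromosome 2, from 109674700 to 109727007. RefSeq start sites on the same assembly (GRCm38.p6) gave Bdnf 7 promoter windows, Ntf3 2, and Ntrk2 and Ngfr 1 each, so 4 of the 6 genes matched. The 250 bases before each start were searched on both strands. The motifs were the cAMP response element TGACGTCA, through which neuronal activity drives transcription, its variant TCACGTCA, and the TATA box TATAAA. The variant was taken from Bdnf exon IV itself, so a match to it in Bdnf was fixed in advance and is no finding of the search. TGACGTCA was in 1.55% of all 32851 promoter windows, the variant in 0.350% and the TATA box in 12.4%. Among the windows of the 4 matched genes there was 1 match, to the variant, in a Bdnf window at chr2:109692186-109692435 on the plus strand, with the motif starting 38 bases before the start site. It is shown with the motif in capitals, because Bdnf counts cannot separate this start from the other 6. The Ngfr window at chr11:95587699-95587948 on the minus strand is shown beside it, since Ngfr was the most abundant of the genes. It held none of these letters, and its GC content was 70.4%, against a median of 52.4% over all windows.
Bdnf: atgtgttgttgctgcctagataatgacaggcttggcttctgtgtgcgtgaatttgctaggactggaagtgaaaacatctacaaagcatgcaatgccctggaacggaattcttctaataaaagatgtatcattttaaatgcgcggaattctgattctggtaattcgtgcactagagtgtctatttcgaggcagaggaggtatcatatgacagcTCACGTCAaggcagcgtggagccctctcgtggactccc
Ngfr: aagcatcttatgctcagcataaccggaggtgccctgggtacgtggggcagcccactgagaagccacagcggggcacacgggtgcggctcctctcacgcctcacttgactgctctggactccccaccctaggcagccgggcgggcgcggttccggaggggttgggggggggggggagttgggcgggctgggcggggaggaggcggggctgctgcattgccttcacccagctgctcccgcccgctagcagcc

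None of the 6 genes passed an adjusted p of 0.05 in edgeR's quasi-likelihood test over all genes, a threshold that 0.0172% of tested genes passed. At an unadjusted p under 0.05 there was 1 of the 6, Sort1, against 6.98% of all tested genes. DESeq2 and limma-voom also called 0 of the 6, where they called 0.184% and 0.0229% of all genes. The authors' deposited table gives all 6 a false discovery rate above the same threshold, from 0.217 for Sort1 to 1.00 for Ntf3, and 0.192% of its genes are below it. Of the log2 fold changes, 3 were above 0 and 3 below, with a median of 0.01, and the median over all tested genes was 0.01.

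**Figure D1:**
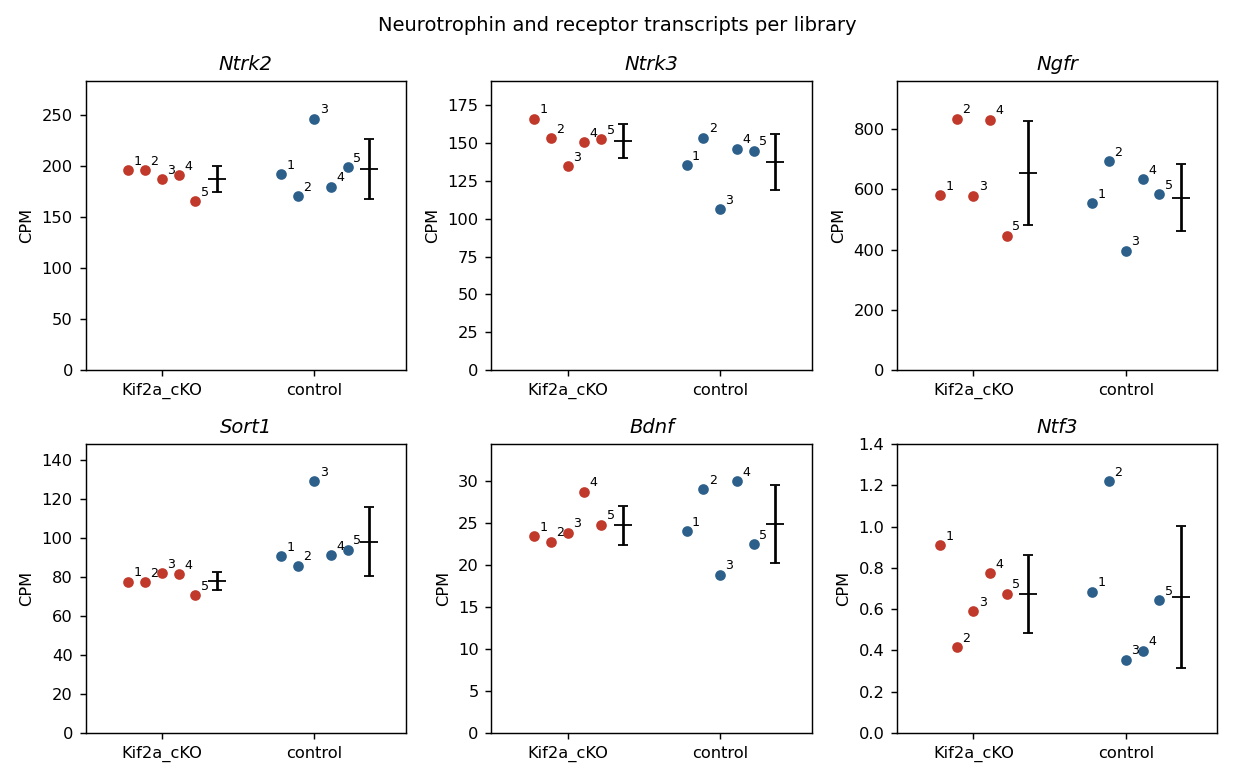
Level of each gene in CPM (vertical axes, from 0) in each of the 5 Kif2a_cKO and 5 control libraries, numbered by replicate; the horizontal mark and bar are the mean and SD. Sort1 is the gene whose groups do not overlap, from 70.5 to 81.9 CPM in Kif2a_cKO and from 85.7 to 129 CPM in controls.

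Ntrk2 encodes TrkB, the receptor for BDNF, which in the ganglion marks a class of touch neurons and, in a truncated form, is also made by glia. It lies on chromosome 13, between 58806569 and 59133970 of the plus strand. Its level was 196, 195, 187, 191 and 165 CPM in Kif2a_cKO 1 to 5, against 192, 170.1, 246, 179 and 199 CPM in controls 1 to 5. Apart from control 3 the groups covered a similar range. The means were 187 ± 12.6 CPM in Kif2a_cKO libraries and 197 ± 29.4 CPM in control libraries (SD, 5 libraries each), and the log2 fold change was -0.08 (edgeR, SE 0.098, adjusted p = 0.916). The 95% interval of the difference ran from -18.3% to 9.68%. Without control 3 the log2 fold change was -0.0040. Low-threshold mechanoreceptor markers, the touch neuron list, summed to 1313 to 2191 CPM in Kif2a_cKO and 1300 to 2017 CPM in controls over 12 genes. Astrocyte markers, several of which satellite glia also express, summed to 76.6 to 170.1 CPM in Kif2a_cKO and 77.1 to 1071 CPM in controls over 8 genes, with none at 0 in any library. The highest astrocyte sum was in control 3, the library with the highest Ntrk2, and the part of this sum in the Ntrk2 level was not tested. Most of the 8 astrocyte genes are also in the spinal cord list, so the high sums of these lists in control 3 are not separate observations. The 8 satellite glia markers summed to 6055 to 7186 CPM in Kif2a_cKO and 5595 to 8806 CPM in controls, also with control 3 highest, and their part was likewise not tested.

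Ntrk3 encodes TrkC, the receptor for neurotrophin-3, which marks the muscle proprioceptors that report limb position and some touch neurons. It lies on chromosome 7, between 78175959 and 78738012 of the minus strand. Its level was 166, 153, 135, 151 and 153 CPM in Kif2a_cKO 1 to 5, against 135, 154, 106, 146 and 145 CPM in controls 1 to 5. Control 3 was the lowest library, and the other controls lay within or near the Kif2a_cKO range. The log2 fold change was 0.14 (edgeR, SE 0.0975, adjusted p = 0.784), with a 95% interval from -4.60% to 27.8%. Without control 3 it was 0.05. Of the 8 proprioceptor markers, 4 lay above 0 and 4 below, with a lowest log2 fold change of -1.16. At an unadjusted p under 0.05, 1 was lower (12.5%, against 4.01% of all tested genes). None was called in edgeR and 1 was called in DESeq2. The 8 summed to 251 to 424 CPM in Kif2a_cKO and 298 to 331 CPM in controls. The widest values, both in Kif2a_cKO, were the 251 CPM of library 2 and the 424 CPM of library 5. Ntrk3 was at 153 CPM in both of those libraries, and the part of proprioceptor content in the Ntrk3 level was not tested.

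Ngfr encodes the p75 neurotrophin receptor, which sensory neurons and Schwann cells make and which binds all neurotrophins. It lies on chromosome 11, between 95568818 and 95587735 of the minus strand. Its level was 579, 834, 578, 831 and 446 CPM in Kif2a_cKO 1 to 5, against 554, 692, 397, 633 and 584 CPM in controls 1 to 5. Of the receptors it varied most between libraries of a group, with a coefficient of variation of 26.3% in Kif2a_cKO and 19.4% in controls, and the groups overlapped widely. The log2 fold change was 0.19 (edgeR, SE 0.186, adjusted p = 0.864). The 95% interval of the difference was -13.6% to 51.3%. The log2 fold change was 0.07 without control 3, 0.090 without Kif2a_cKO 2 and 0.089 without Kif2a_cKO 4. A list of 10 genes of non-myelinating and repair Schwann cells, some of which sensory neurons also express, does not measure Schwann cells alone. It summed to 1403 to 1615 CPM in Kif2a_cKO and 1215 to 1527 CPM in controls. Its highest sum was in Kif2a_cKO 2 and its lowest in control 3, the libraries with the highest and lowest Ngfr. Kif2a_cKO 4, with Ngfr at 831 CPM, had a sum of 1467 CPM, within the control range. This list shares a gene with the spinal cord list. Control 3 also had the lowest sensory neuron sum, 16912 CPM. The part of these lists in the Ngfr level was not tested.

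Sort1 encodes sortilin, a sorting receptor of the secretory pathway that pairs with p75 to bind proneurotrophins and that carries Trk receptors along axons. It lies on chromosome 3, between 108284082 and 108361511 of the plus strand. Its level was 77.4, 77.2, 81.9, 81.4 and 70.5 CPM in Kif2a_cKO 1 to 5, against 90.7, 85.7, 129, 91.1 and 93.9 CPM in controls 1 to 5. Each Kif2a_cKO library lay below each control, a pattern seen in 0.436% of tested genes. The means were 77.7 ± 4.55 CPM in Kif2a_cKO libraries and 98.1 ± 17.5 CPM in control libraries (SD, n = 5 each), a log2 fold change of -0.34 (SE 0.104) with a 95% interval from -32.2% to -7.39%. The unadjusted edgeR p was 0.00672 and the adjusted p was 0.703, so the difference did not pass the test over all genes. The authors' deposited table gives Sort1 a log2 fold change of -0.34 with a false discovery rate of 0.217.

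The difference was smaller without control 3: the log2 fold change of Sort1 was -0.23 (edgeR adjusted p = 0.984), and the other 4 controls averaged 90.4 ± 3.44 CPM. Controls 2 and 4 had spinal cord sums of 247 and 264 CPM, within the Kif2a_cKO range of 181 to 521 CPM. Sort1 was at 85.7 and 91.1 CPM in those controls. With those as the only controls the log2 fold change was -0.19 (edgeR adjusted p = 0.991). Adding the score of that list to the fit as a covariate gave -0.25 (edgeR adjusted p = 0.924). The unadjusted p was 0.00486, 0.0734 and 0.0163 in these 3 fits. Sort1 lay below 0 in all 19 alternatives tried, and in none of them was it called. The alternatives refit the same counts, and with groups that do not overlap, leaving out libraries could hardly turn the sign. The constant sign is therefore no added support. The 10 markers of myelinating Schwann cells summed to 21450.4 to 33852 CPM in Kif2a_cKO and 29654 to 39867 CPM in controls, with control 3 highest. All 10 lay below 0, their median log2 fold change was -0.32, and 6 of the 10 were lower at an unadjusted p under 0.05, against 4.01% of all tested genes. None of the 10 was called in edgeR and 1 was called in DESeq2. The list shares a gene with the spinal cord list, whose 19 tested genes also all lay below 0, with a median of -2.18. The part of the 10 markers in the Sort1 difference was not tested, and the cells behind their lower values cannot be told apart here. The antisense gene Gm12523 shares 338 exon bases with Sort1, and since the strand setting of the counting is not given, reads from the 2 genes cannot be told apart there.

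**Figure D2:**
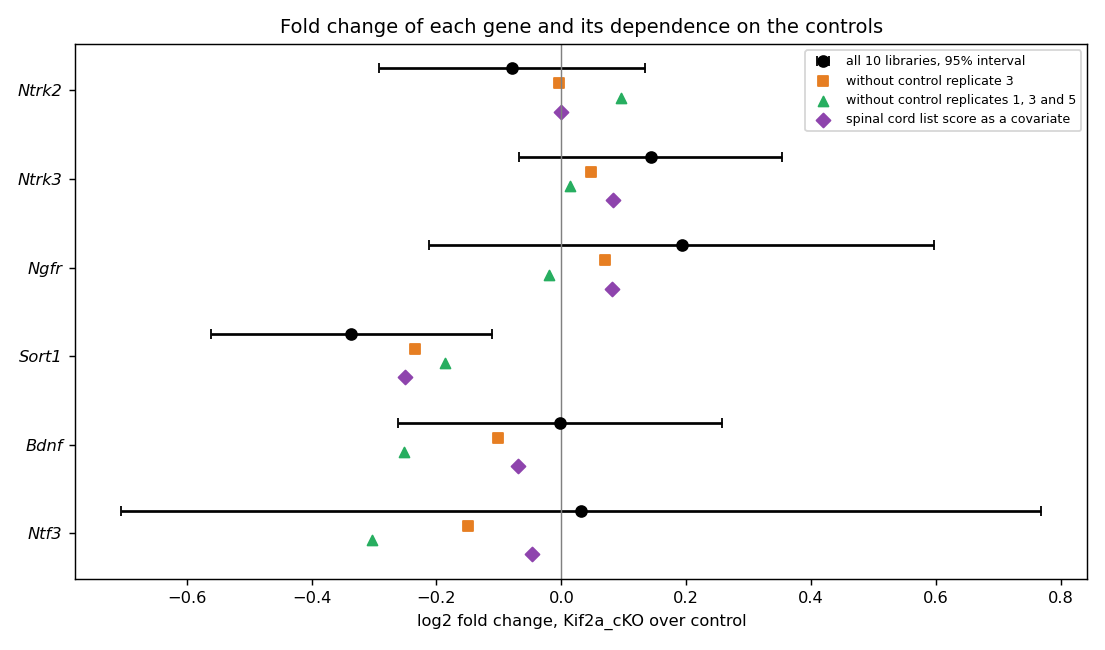
Log2 fold change of each gene, Kif2a_cKO over control (horizontal axis), with all 10 libraries and its 95% interval, without control replicate 3, without control replicates 1, 3 and 5, and with the spinal cord score added as a covariate. The Sort1 points lie between -0.34 and -0.19, while those of Ntrk2, Ngfr and Ntf3 lie on both sides of 0.

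Bdnf encodes brain-derived neurotrophic factor, the TrkB ligand, which peptidergic nociceptors make and release in the spinal cord. Its level was 23.4, 22.8, 23.9, 28.7 and 24.8 CPM in Kif2a_cKO 1 to 5, against 23.999, 29.0, 18.8, 29.9 and 22.5 CPM in controls 1 to 5. Controls held both the highest and the lowest libraries, and the Kif2a_cKO values lay between them. The means were 24.7 ± 2.36 CPM in Kif2a_cKO libraries and 24.8 ± 4.63 CPM in control libraries (SD, n = 5 each), and the log2 fold change was -0.0027 (edgeR, SE 0.120, adjusted p = 0.999). Its 95% interval ran from -16.6% to 19.5%. The value depended on the controls: it was -0.10 without control 3, 0.064 without control 4 and, with controls 2 and 4 alone, the controls with the highest Bdnf, -0.25 (edgeR adjusted p = 0.991). Peptidergic nociceptor markers summed to 2434 to 3033 CPM in Kif2a_cKO and 2089 to 2769 CPM in controls over 9 genes. Of the 9, 8 lay above 0 and 1 below, with a median log2 fold change of 0.18. At an unadjusted edgeR p under 0.05, 4 were higher (44.4%, against 2.97% of all tested genes) and 0 were lower. None was called in edgeR, DESeq2 or limma-voom, and the part of these markers in the Bdnf level was not tested. The antisense gene Gm45346 shares 896 exon bases with Bdnf and had 27 counts over all 10 libraries.

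Ntf3 encodes neurotrophin-3, the TrkC ligand, best known as a factor that muscle spindles and skin supply to sensory axons. It lies on chromosome 6, between 126101412 and 126166910 of the minus strand, and was scarce in the ganglion. Its counts were 31, 12, 17, 56 and 20 in Kif2a_cKO 1 to 5 and 24, 34, 12, 7 and 22 in controls 1 to 5. Scaled for depth these were 0.910, 0.416, 0.591, 0.775 and 0.674 CPM in Kif2a_cKO, against 0.685, 1.22, 0.354, 0.399 and 0.644 CPM in controls. The controls spanned the whole Kif2a_cKO range. The log2 fold change of 0.03 (edgeR, SE 0.341, adjusted p = 0.995) had a 95% interval from -38.7% to 70.4%, so a moderate change in either direction was not detectable in these libraries. Its sign turned without control 3 (-0.15), control 4 (-0.085), Kif2a_cKO 1 (-0.093) or Kif2a_cKO 4 (-0.025), and it was 0.35 without control 2.

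Control 3 was the highest or the lowest of the 10 libraries in all 6 genes. It was highest for Ntrk2 and Sort1 and lowest for Ntrk3, Ngfr, Bdnf and Ntf3. Over all tested genes it was highest or lowest in 35.4%, and Kif2a_cKO 5 was in 39.5%. Its spinal cord sum was the highest of the 10 libraries and its sensory neuron sum, 16912 CPM, the lowest, and their part in these values was not tested.

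**Figure D3:**
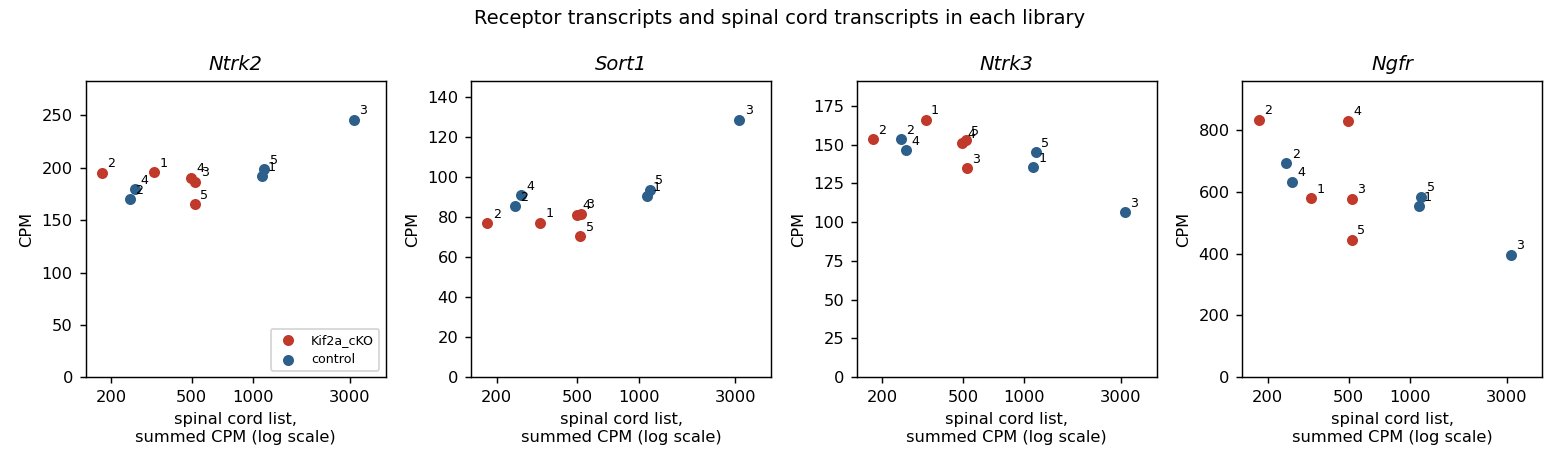
CPM of the 4 receptor genes (vertical axes, from 0) against the summed CPM of the spinal cord list (horizontal axes, log scale) in the 10 libraries, numbered by replicate. Control 3, at 3140 CPM of spinal cord transcripts, has the highest Ntrk2 and Sort1 and the lowest Ntrk3 and Ngfr.

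To compare the genes with each other, levels were divided by the length of all exons of a gene joined together. On this scale Ngfr was far above the rest, at 189.7 ± 49.9 CPM per kb in Kif2a_cKO libraries and 166 ± 32.2 CPM per kb in control libraries (SD, n = 5 each). Sort1 came next at 10.3 ± 0.601 CPM per kb in Kif2a_cKO libraries and 13.0 ± 2.31 CPM per kb in control libraries. Ntrk2 was at 9.68 ± 0.654 CPM per kb in Kif2a_cKO, against 10.2 ± 1.52 in controls. Ntrk3 was at 5.02 ± 0.368 CPM per kb in Kif2a_cKO, against 4.55 ± 0.613 in controls, and Bdnf at 3.97 ± 0.380 in Kif2a_cKO, against 3.997 ± 0.745 in controls. Ntf3 was lowest at 0.393 ± 0.109 CPM per kb in Kif2a_cKO libraries and 0.385 ± 0.201 CPM per kb in control libraries. Each gene exceeded the next one in all 10 libraries, but the steps from Sort1 to Ntrk2 (1.17-fold) and from Ntrk3 to Bdnf (1.201-fold) were small enough that their ranges over the libraries overlapped. The step from Sort1 to Ntrk2 was also smaller than the SD of Sort1 over the 10 libraries, 2.13 CPM per kb. With the longest annotated transcript as the length, Ntrk2 stood above Sort1 in all 10 libraries, by 1.71-fold, so the order of those genes depended on the gene model, and the others kept their places. The joined exons measured 19.3 kb for Ntrk2 and 30.2 kb for Ntrk3, against longest transcripts of 8744 and 19703 bases.

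**Figure D4:**
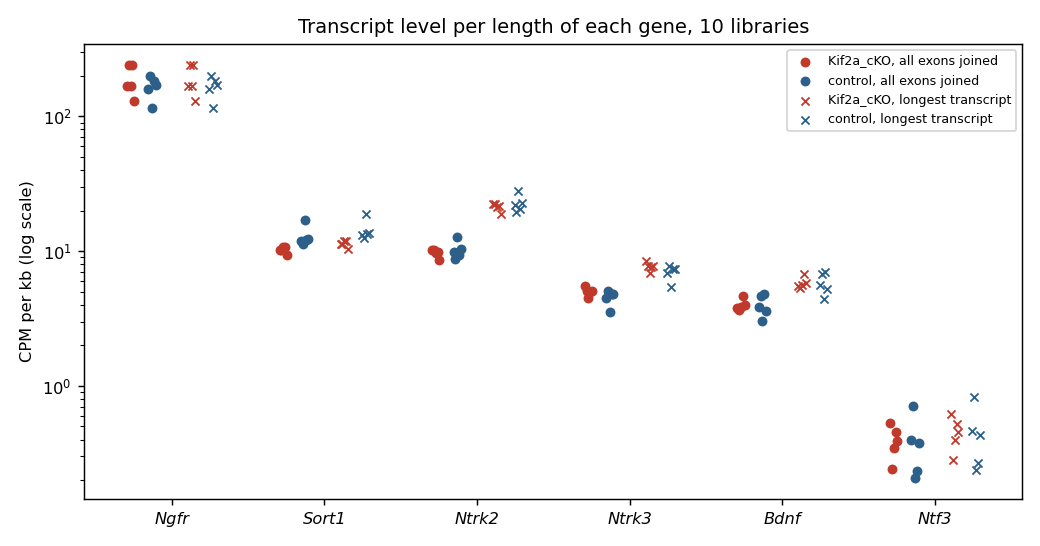
CPM per kb (vertical axis, log scale) of each gene in the 5 Kif2a_cKO and 5 control libraries, with the length taken from all exons joined (circles) or from the longest transcript (crosses). Ngfr lies above 115 CPM per kb in each library and Ntf3 below 1 CPM per kb, while Ntrk2 and Sort1 change places with the length used.

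The wider neurotrophin pathway was examined through 5 lists with 90 genes in all, of which 86 were tested. None of the 86 was called in edgeR, against 0.0172% of all genes, nor in DESeq2 or limma-voom. At an unadjusted p under 0.05, 1 was higher and 5 were lower in Kif2a_cKO, that is 1.16% and 5.81% of them, against 2.97% and 4.01% of all tested genes. Their median log2 fold change was -0.02, with 50 of 86 below 0 (58.1%, against 47.9% of all tested genes).

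Genes of ligand processing and release comprise the proteases that cut proneurotrophins and the proteins of the secretory granule. Of 11 tested, 0 were higher and 1 was lower at an unadjusted p under 0.05 (9.09% lower, against 4.01% of all tested genes). The median log2 fold change was -0.05. The lower gene was Pcsk6, a proprotein convertase, with 7.28 ± 0.952 CPM in Kif2a_cKO libraries and 9.92 ± 1.90 CPM in control libraries (SD, n = 5 in each group; log2 fold change -0.45, edgeR adjusted p = 0.703). Its groups did not overlap, a pattern in this direction that 0.436% of all tested genes showed and 1 of the 86 pathway genes. The most abundant were the granule proteins Cpe, at 781 ± 59.3 CPM in Kif2a_cKO libraries and 809 ± 41.5 CPM in control libraries, and Scg2, at 385 ± 27.3 CPM in Kif2a_cKO, against 380.0 ± 51.5 CPM in controls, with log2 fold changes of -0.05 and 0.02.

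Receptor partners, among them the sortilin relatives and the adaptors of p75, had 16 tested genes and a median log2 fold change of 0.03. At an unadjusted p under 0.05, 1 was higher (6.25%, against 2.97% of all tested genes) and 0 were lower. The higher gene was Sorl1, a sorting receptor of the sortilin family, with 261 ± 35.6 CPM in Kif2a_cKO libraries and 224 ± 15.4 CPM in control libraries (SD, n = 5 in each group; log2 fold change 0.22, edgeR adjusted p = 0.703). Its sign was opposite to that of Sort1, and its groups overlapped. Arhgdia, which binds p75, and Maged1, an adaptor of p75, were the most abundant, at 842 ± 150.4 and 572 ± 16.01 CPM in Kif2a_cKO, against 849 ± 105 and 563 ± 43.5 CPM in controls.

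Inside the cell, Trk receptors recruit adaptors that feed the Ras-MAP kinase and PI3 kinase cascades. Of 21 adaptors tested, 16 lay below 0 (76.2%, against 47.9% of all tested genes), and their median log2 fold change was -0.03. At an unadjusted p under 0.05, 1 was lower (4.76%, against 4.01% of all tested genes). This was Irs1, an insulin receptor substrate that also carries Trk signals, with 2.49 ± 0.207 CPM in Kif2a_cKO libraries and 3.81 ± 0.844 CPM in control libraries (SD, n = 5 in each group; log2 fold change -0.61, edgeR adjusted p = 0.703). The lowest control, at 2.63 CPM, was below the highest Kif2a_cKO library, at 2.68 CPM. The most abundant adaptors, Grb2 and Shc2, had log2 fold changes of -0.0090 and 0.0096. Of 21 genes of the kinase cascades, 0 were past an unadjusted p of 0.05 in either direction, and the median was 0.01. Mapk3, a MAP kinase of the cascade downstream of Ras, had a log2 fold change of 0.03, and the lowest p belonged to Mapk8, a JNK kinase with a log2 fold change of 0.14 (edgeR adjusted p = 0.703).

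Of 17 tested genes that neurons switch on after Trk signalling or activity, none was called. Of the 17, 13 lay below 0 (76.5%, against 47.9% of all tested genes), and their median log2 fold change was -0.06. At an unadjusted p under 0.05, 0 were higher and 3 were lower (17.6% lower, against 4.01% of all tested genes). Fos, an immediate early transcription factor, had 4.61 ± 0.576 CPM in Kif2a_cKO libraries and 5.91 ± 1.14 CPM in control libraries (SD, n = 5 in each group; log2 fold change -0.36, edgeR adjusted p = 0.703). The others, named after their values were seen, were Egr1, an immediate early transcription factor, at -0.27, and Arc, an activity-regulated synaptic protein, at -0.47. Vgf, a secreted peptide precursor induced by neurotrophins and the most abundant of the list, had 162 ± 49.95 CPM in Kif2a_cKO libraries and 165 ± 22.7 CPM in control libraries, and Spred2, an inhibitor of Ras signalling, stood at 67.9 ± 12.5 CPM in Kif2a_cKO and 68.1 ± 9.13 CPM in the controls.

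**Figure D5:**
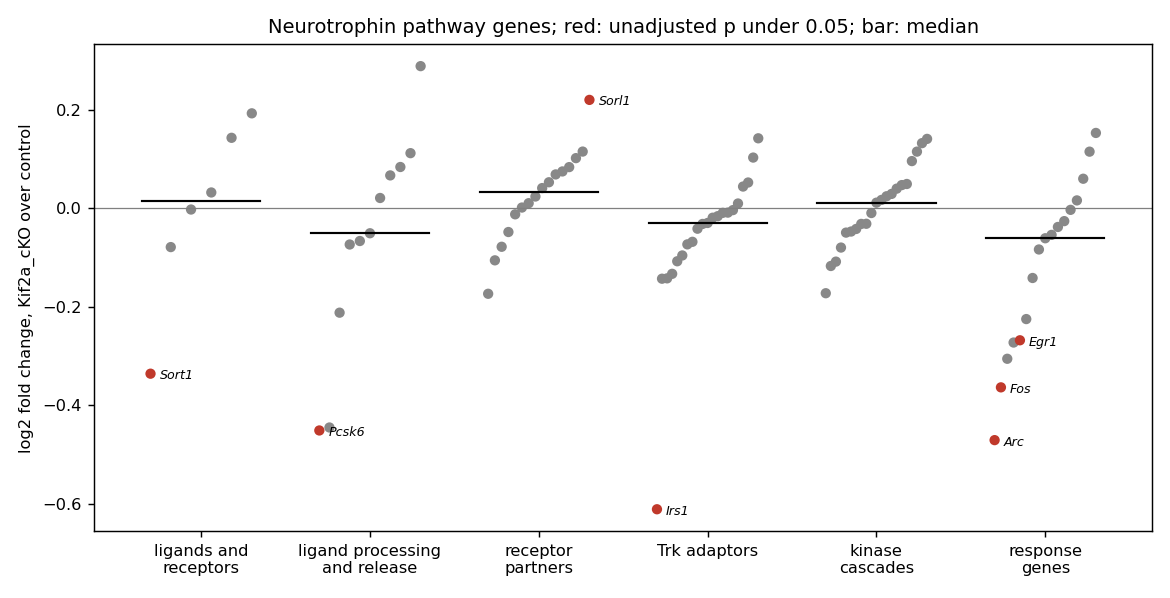
Log2 fold change, Kif2a_cKO over control (vertical axis), of the 6 genes and of the 5 pathway lists, each point a gene, sorted within its list; red points have an unadjusted p under 0.05 and are named, and the bar is the list's median. The medians lie between -0.06 and 0.03, and none of the genes shown was called over all genes.

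Over the 10 libraries, the genes whose log2 CPM followed each of the 6 most closely were sought among 14989 genes with a mean of at least 1 CPM (14990 for Ntf3). Because each is the best of so many and the libraries share depth and tissue makeup, the correlations are given as descriptions. Ntrk2 was most like Bcan, a proteoglycan of the extracellular matrix (r = 0.9747, Spearman 0.976), then Kcnn2, a potassium channel (r = 0.969), and Bri3bp (r = 0.961). Ntrk3 was most like Cast, the calpain inhibitor calpastatin (r = 0.978, Spearman 0.842), then Map7d2, a microtubule-binding protein, and Atp2b1, a calcium pump. Ngfr was most like Lztr1 (r = 0.982, Spearman 0.939), then Acly, the ATP citrate lyase, and Nmt1, a myristoyltransferase. Sort1 was most like Stox2 (r = 0.965, Spearman 0.903), then S1pr1, a sphingosine-1-phosphate receptor, and Slc25a23, a mitochondrial carrier. Bdnf was most like Snx12, a sorting nexin (r = 0.939, Spearman 0.891), then Gdi2 and Timm22, and Ntf3 most like Tab3 (r = 0.932, Spearman 0.842), then Scx and L3mbtl4. Without the 2 libraries farthest from a gene's median, r was 0.967 for Ntrk2 and Bcan, 0.979 for Ngfr and Lztr1, 0.869 for Ntrk3 and Cast, 0.852 for Bdnf and Snx12, 0.884 for Ntf3 and Tab3, and 0.766 for Sort1 and Stox2. Control 3 was 1 of those 2 libraries for each gene.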

How the data were processed

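Per the labels, polyadenylated RNA of 10 mouse dorsal root ganglion samples was sequenced, 5 Kif2a_cKO and 5 control. The submitters' processing notes name mm10 and the tools cutadapt, STAR and DESeq2; versions, read counter, annotation and strand setting were not given in the sources used here. Values for each gene symbol and library were deposited by the authors as raw counts. The authors' deposited table also holds a log2 fold change (KO over WT), a p-value and a false discovery rate, the last from fdrtools per the file headers; whether the fold change was shrunken is not stated.

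The test was edgeR 4.0.16 under R 4.3.3: filterByExpr (minimum count 10, minimum total 15), TMM scaling (factors 0.957 to 1.05) and a robust quasi-likelihood F test on group, with Benjamini-Hochberg adjustment over all 17439 genes and a threshold of 0.05. The SE is the log2 fold change divided by the square root of F. CPM uses TMM-scaled library sizes, and log2 CPM a prior count of 2. Errors rest on the variation among libraries, and no pair of replicates agreed within sampling noise (chi-square per gene at least 10.3). Gene models came from GENCODE M21 (GRCm38), where 97.4% of symbols matched, and promoters from RefSeq (GRCm38.p6). Alternatives were DESeq2 1.42.0, limma-voom (limma 3.58.1) with sample quality weights, other scalings and filters, the replicate number as a block, a spinal cord covariate, and leaving out libraries.

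The 6 genes, the lists, the tests and the alternatives were chosen with earlier results of these data known. Named genes are the 6, then in each pathway list the called genes or else the 2 most abundant and the 1 with the lowest p, then the 3 genes most like each of the 6; 1 gene of this rule is not reported here. Marker lists without a sum in the text (fibroblasts and mural cells, endothelium, macrophages) had no member called in edgeR and none at an unadjusted p under 0.05.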

Additional observations from a re-analysis of the deposited data

Results flagged for a closer look

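Among the 12 sets of 5 libraries formed by the 6 genes in each group, 2 held a library whose gap to its nearest neighbour exceeded Dixon's 95% critical value, which chance gives in about 1 set of 20. Ntrk2 was at 165.1 CPM in Kif2a_cKO 5, below the other 4 Kif2a_cKO libraries, which ran from 187 to 196 CPM. This gap was 0.7103 of the group's range, just past the critical 0.71. Sort1 was at 128.9 CPM in control 3, above the other 4 controls, with a gap of 0.809 of the range. Control 3 was also the library with the most spinal cord transcripts. With the spinal cord score as a covariate the Sort1 log2 fold change was -0.25, against -0.34 without it. The part of these transcripts in the control 3 value itself was not tested.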

How the results depend on the processing

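The 6 genes were called in none of the 19 alternatives, and Ntf3 was not tested where at least 1 CPM in 5 samples was required. Sort1 stayed below 0 in all 19 and Ntrk3 above 0 in all 19, from -0.39 to -0.19 and from 0.01 to 0.17. For Sort1, whose groups do not overlap, leaving out libraries could hardly turn the sign. Signs near 0 turned, and the cause was not tested. Without control replicates 1, 3 and 5 the log2 fold change was 0.095 for Ntrk2, -0.020 for Ngfr and -0.30 for Ntf3. With the spinal cord score added as a covariate it was 0.00011 for Ntrk2 and -0.047 for Ntf3, and with limma-voom 0.019 for Ntrk2. With each library left out in turn Ntrk2 ran from -0.14 to -0.0040, Ngfr from 0.07 to 0.29, Bdnf from -0.10 to 0.064 and Ntf3 from -0.15 to 0.35. The count of called genes over the whole table was 3 (1217 at an unadjusted p under 0.05). It was 32 in DESeq2, 0 with the stricter filter (1011 at an unadjusted p under 0.05), 0 without control replicates 1, 3 and 5 (604), 0 with the covariate (832), and 0 to 3 with each library left out in turn (801 to 1527). With the replicate number as a block it was 0 (1499), and Bdnf had a log2 fold change of 0.0067. Same-numbered libraries shared deviations from their group means in 4 of 5 pairs (correlation over 0.1), and the lowest pair was at -0.147. Of the libraries, 4 of 5 Kif2a_cKO and 3 of 5 controls correlated best with their own number, a hint of pairing from the data. The labels do not say what a number marks, and not every pair was over 0.1, so the block was kept as an alternative. Ntf3 had 7 to 56 counts per library, and the part of depth in its wide interval was not tested.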

Other observations

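Within a library, the ratio of Ntrk2 to Ntrk3 counts does not depend on scaling. It was 1.18, 1.27, 1.38, 1.27 and 1.08 in Kif2a_cKO 1 to 5, against 1.42, 1.11, 2.31, 1.23 and 1.37 in controls 1 to 5, so control 3 was the library with TrkB transcripts most in excess of TrkC transcripts. The ratio of Sort1 to Ngfr counts was 0.0926 to 0.158 in Kif2a_cKO and 0.124 to 0.325 in controls, again with control 3 highest. The ratio of Bdnf to Ntf3 counts was 25.7 to 54.8 in Kif2a_cKO and 23.8 to 75.0 in controls, and its highest value was in control 4, which had 7 Ntf3 counts. These ratios were chosen after the levels were seen and were not tested.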
